A study of Homo sapiens with 11 samples.

Results

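The 9 genes described here are TMEM45A, ADM, NDRG1, BNIP3, BNIP3L, ANKRD37, KDM3A, MXI1 and INSIG2, a set of hypoxia-inducible genes that encode no glycolytic enzyme. They were taken by symbol from a table of 28152 genes, and they had been selected on their measured difference between the study's groups, which was already known. Their group differences are therefore given as a description, without p-values. All 9 passed the filter on low counts.

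RNA was sequenced from 11 tumours labelled as grown from the human breast cancer line BT-474, positive for hormone receptors and HER2, in the mammary fat pad of female athymic nude mice, which lack T cells. The study compared 6 libraries of animals given vehicle, mannitol in water, with 5 libraries of animals given evexomostat (SDX-7320; 12 mpk), an inhibitor of methionine aminopeptidase 2, which trims the initiator methionine from nascent polypeptides. Both were injected under the skin every 4 days, all mice carried an estradiol pellet, and all libraries are labelled day 33. Tumours contain mouse host tissue, and how mouse reads were handled is not given in the sources used here. The animals' ages are not in the labels, nor is it stated whether each library came from a separate animal, so p-values measure the spread between these samples only.

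Cells respond to low oxygen through the hypoxia-inducible factors (HIFs), transcription factors whose alpha subunit is marked by oxygen-dependent hydroxylases and then degraded through the VHL protein. When oxygen falls, the alpha subunit pairs with ARNT, binds short DNA motifs and activates genes of glycolysis, but also genes of signalling, mitophagy, chromatin modification and lipid control. The 9 genes belong to the latter kind. In breast tumours, such genes are commonly read as signs of poorly perfused regions.

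Library totals ranged from 22808033 to 39249329 counts. Vehicle replicate 001 stood apart from the rest, with a ribosomal protein share of 13.5% of its counts, where its group otherwise ranged from 4.57% to 6.55% and the evexomostat libraries from 6.68% to 8.24%, so the group differences and counts of calls that follow are also given without it. The part of this share in the results was not tested. Several markers that define luminal breast cells were low in all libraries labelled BT-474. Means were 0.285 RPM (reads scaled to a common total) for ESR1, 0.0655 for PGR, 0.803 for KRT19 and 0.456 for CDH1. With TFF1, 5 of the 12 luminal markers averaged under 1 RPM. FOXA1 averaged 1.05 RPM and EPCAM 3.03 RPM. ERBB2, the gene of HER2, averaged 53.7 RPM, below KRT18 at 148.6 RPM and KRT8 at 332 RPM. The 6 mesenchymal genes averaged from 28.6 RPM for ZEB1 to 1187 RPM for VIM. The low ESR1 and PGR go against the label of a line positive for hormone receptors. Whether the ERBB2 level is that of a HER2-positive line was not tested, nor was the identity of the cells. Of the markers of other cell types, those of endothelium summed to 11.3 to 24.1 RPM under vehicle and 11.5 to 16.3 RPM under evexomostat, those of leukocytes to 71.1 to 121.7 and 89.8 to 110.8 RPM, and those of fibroblasts to 391 to 2064 and 499 to 1120 RPM. Skeletal muscle markers summed to 1.98 to 18.9 RPM under vehicle and 2.15 to 418.9 RPM under evexomostat, highest in evexomostat replicate 005. The adipocyte markers summed to 0.345 to 1.90 RPM and 0.315 to 2.86 RPM, highest in the same library, with ADIPOQ at 0 counts throughout. Of the 40 markers that could be tested over these 7 lists, 0 passed edgeR's adjusted p of 0.05, 5 had an unadjusted p under 0.05 and DESeq2 called 2. Over all 16653 tested genes the same counts were 101, 2225 and 649.

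The promoters of the genes are shown first, because the HIF motif is the feature through which these genes are usually grouped. RefSeq promoter windows (build GRCh38.p14), cut to the 250 bases before the transcription start, were found for 7 of the 9 genes, with 11 windows in all. The core HIF motif was searched as the letters ACGTG or GCGTG on both strands, where the palindrome CACGTG counts as a match on each strand. The 4 windows printed are that of TMEM45A, the gene with the largest group difference, those of ANKRD37 and BNIP3, which held the most matches, and 1 of INSIG2, which is among the genes with the smallest difference. They are written 5′ to 3′ on the gene's strand, in lower case, with the bases of each match in capitals.
TMEM45A, chr3:100492369-100492618, plus strand: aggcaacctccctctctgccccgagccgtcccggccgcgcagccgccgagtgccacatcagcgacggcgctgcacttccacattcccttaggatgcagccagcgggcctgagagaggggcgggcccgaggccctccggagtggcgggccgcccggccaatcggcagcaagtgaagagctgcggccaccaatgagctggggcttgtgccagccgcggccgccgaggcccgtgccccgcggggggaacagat
ANKRD37, chr4:185396591-185396840, plus strand: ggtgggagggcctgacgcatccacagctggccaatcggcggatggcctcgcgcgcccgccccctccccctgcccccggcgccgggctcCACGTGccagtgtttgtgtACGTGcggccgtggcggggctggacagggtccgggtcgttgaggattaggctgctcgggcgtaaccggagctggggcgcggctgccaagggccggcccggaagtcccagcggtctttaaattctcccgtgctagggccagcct
BNIP3, chr10:131981924-131982173, minus strand: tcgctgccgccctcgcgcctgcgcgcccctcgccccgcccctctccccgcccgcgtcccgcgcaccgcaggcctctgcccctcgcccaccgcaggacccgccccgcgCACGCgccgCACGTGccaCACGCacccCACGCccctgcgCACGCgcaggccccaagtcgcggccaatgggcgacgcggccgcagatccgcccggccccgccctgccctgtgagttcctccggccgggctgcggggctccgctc
INSIG2, chr2:118088221-118088470, plus strand: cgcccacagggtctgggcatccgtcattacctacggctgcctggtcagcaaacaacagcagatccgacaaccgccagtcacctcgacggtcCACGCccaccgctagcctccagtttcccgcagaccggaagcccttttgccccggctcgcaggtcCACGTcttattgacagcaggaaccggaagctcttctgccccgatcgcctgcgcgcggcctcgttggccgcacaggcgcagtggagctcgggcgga
The TMEM45A window held no match, which says only that these letters are not in this stretch. ANKRD37 had 3 matches, the nearest 143 bases before the start, BNIP3 had 6, the nearest 104 bases before the start, and the INSIG2 window had 2, the nearest 95 bases before the start. Among the other genes, the single ADM window had 1 match, each of the 2 KDM3A windows had 1, and the 3 MXI1 windows had 0, 2 and 1. In all, 9 of the 11 windows (81.8%) held the motif, against 43.2% of all 35116 RefSeq windows of the same length. With ACGTG alone the count was 5 of 11 (45.5%), against 18.5% of all windows. Windows of 1 gene can overlap. The 2 INSIG2 windows hold the same 2 matches and the 2 KDM3A windows the same 1, so these sites are counted more than once. A match is not evidence of binding.

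Levels below are CPM, counts scaled to a common library total with TMM factors, and differences are log2 fold changes of evexomostat against vehicle with their standard error (SE), from edgeR's quasi-likelihood fit of all 16653 tested genes. All 9 genes had a lower fitted level under evexomostat than under vehicle, as did 55.4% of all tested genes. Their median log2 fold change was -0.92, against -0.04 over all tested genes. TMEM45A had the largest difference, and its groups did not overlap. NDRG1 and ADM followed, with wide spread between libraries. ANKRD37 came next, and MXI1 and INSIG2 differed least. In bulk tumour RNA, fewer cells of a type and less RNA per cell cannot be told apart.

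**Figure D1:**
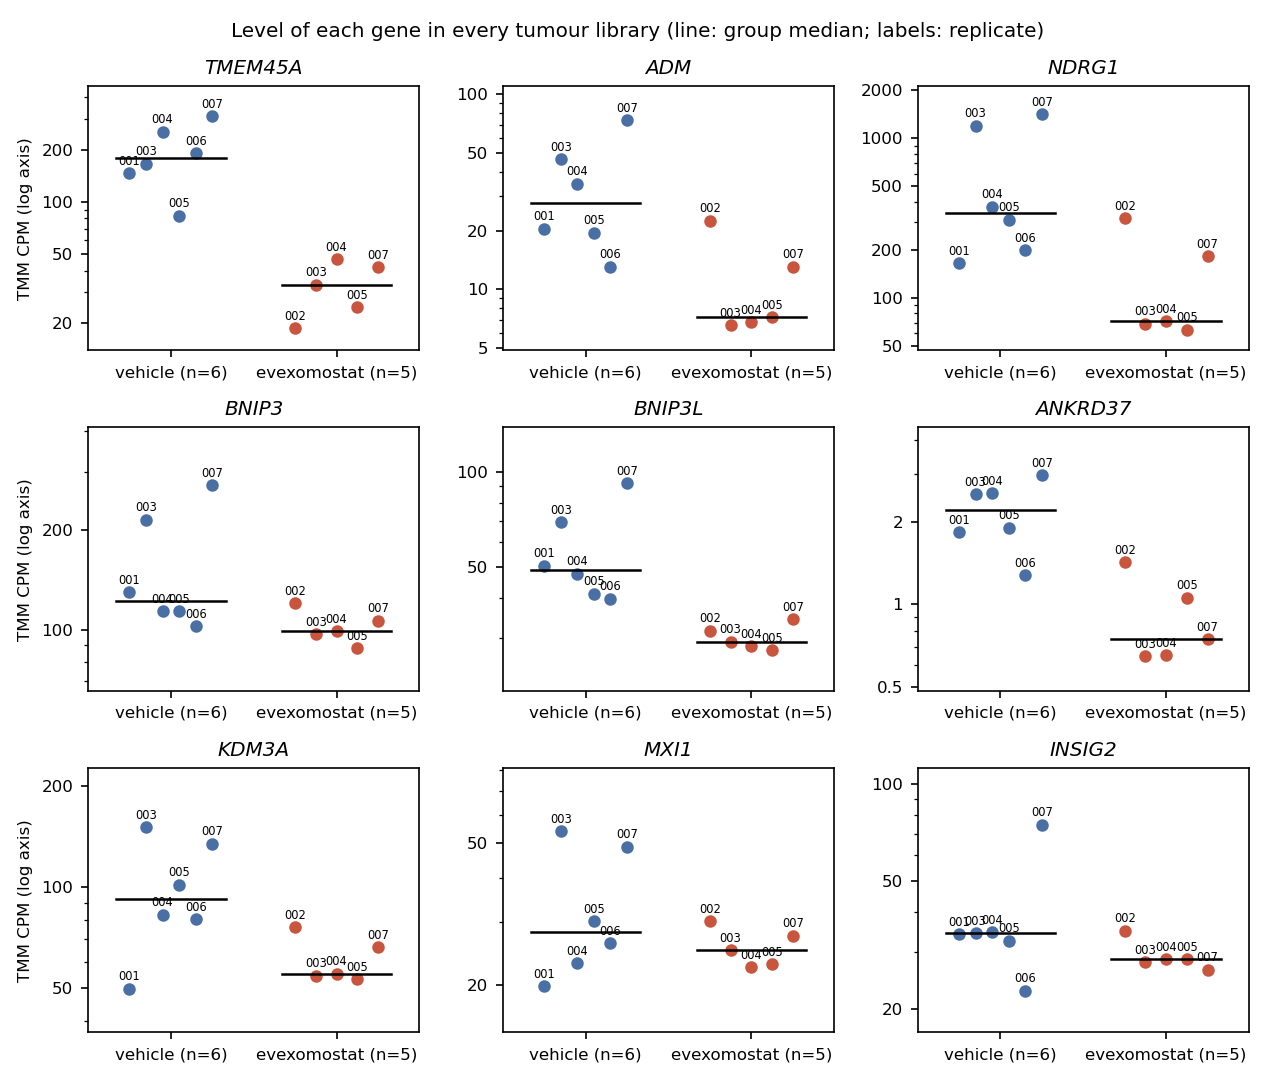
Level of each gene in every library, as TMM-scaled CPM on a log axis, for 6 vehicle (blue) and 5 evexomostat (red) libraries labelled by replicate number, with a line at the group median. The groups are separate for TMEM45A and BNIP3L, and vehicle replicates 003 and 007 lie high in most panels.

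TMEM45A encodes a multi-pass membrane protein. Its vehicle libraries ran from 83.0 CPM in replicate 005 through a median of 177.8 CPM to 310.4 CPM in replicate 007. Under evexomostat it measured 18.7, 33.1, 46.6, 24.7 and 42.0 CPM in replicates 002, 003, 004, 005 and 007. Every evexomostat library was thus below every vehicle library. The mean was 191.3 ± 80.6 CPM (SD, n = 6) under vehicle and 33.0 ± 11.6 CPM (SD, n = 5) under evexomostat. The log2 fold change was -2.54 (SE 0.34), or 5.80-fold lower. Without vehicle replicate 001 the log2 fold change was -2.60 (SE 0.34).

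ADM encodes adrenomedullin, a secreted peptide that relaxes and protects blood vessels. Its vehicle libraries ran from 13.0 CPM in replicate 006 through a median of 27.6 CPM to 73.6 CPM in replicate 007. Evexomostat replicates 003, 004 and 005 measured 6.56, 6.81 and 7.18 CPM, while replicates 002 and 007 measured 22.5 and 13.1 CPM. The groups overlapped through those 2 libraries, since 3 of the 6 vehicle libraries were below 22.5 CPM. Between the groups ADM had a log2 fold change of -1.62 (SE 0.47; -1.73 without vehicle replicate 001), with means of 34.7 ± 22.6 CPM (SD, n = 6) and 11.2 ± 6.85 CPM (SD, n = 5).

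NDRG1, a stress-induced cytoplasmic protein linked to differentiation and reduced metastasis, had the widest spread of the 9 genes. Under vehicle it measured 164.7, 1200.1, 374.0, 309.9, 199.8 and 1418 CPM in replicates 001, 003, 004, 005, 006 and 007. Replicates 003 and 007 were thus more than 3 times as high as any other vehicle library. Under evexomostat it measured 69.1, 71.5 and 63.4 CPM in replicates 003, 004 and 005, but 316.1 and 183.7 CPM in replicates 002 and 007. As for ADM, the overlap came from those 2 evexomostat libraries, which lay within the vehicle range. The log2 fold change was -2.12 (SE 0.65; -2.31 without vehicle replicate 001), with means of 611 ± 550 CPM (SD, n = 6) and 140.8 ± 110.1 CPM (SD, n = 5).

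BNIP3 and BNIP3L (NIX) encode related proteins of the outer mitochondrial membrane that bind LC3-family proteins and mark mitochondria for mitophagy, their removal by autophagy. BNIP3L measured 39.9 CPM in its lowest vehicle library, replicate 006, with a median of 49.3 CPM and a highest value of 92.3 CPM in replicate 007. Under evexomostat it measured 31.6, 29.2, 28.2, 27.5 and 34.4 CPM in replicates 002, 003, 004, 005 and 007. The evexomostat libraries lay close together and below every vehicle library. Its log2 fold change was -0.92 (SE 0.21; -0.94 without vehicle replicate 001), between 56.9 ± 20.3 CPM (SD, n = 6) and 30.2 ± 2.81 CPM (SD, n = 5).

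BNIP3 differed less than its relative. Its vehicle libraries ran from 102.6 CPM in replicate 006 through a median of 121.9 CPM to 273.6 CPM in replicate 007. The evexomostat values were 120.5, 97.0, 99.0, 87.8 and 106.4 CPM in the same order as for BNIP3L. Only vehicle replicates 001, 003 and 007 were above all of them, so the groups overlapped. The log2 fold change was -0.63 (SE 0.25; -0.67 without vehicle replicate 001), with means of 158.1 ± 69.8 CPM (SD, n = 6) and 102.1 ± 12.2 CPM (SD, n = 5). BNIP3 has processed pseudogenes in the genome, and its level is uncertain where counting could split reads between near-identical copies.

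ANKRD37, a small ankyrin-repeat protein, was by far the least abundant, with 16 to 98 counts per library. Its vehicle libraries ran from 1.28 CPM in replicate 006 through a median of 2.22 CPM to 2.98 CPM in replicate 007. Evexomostat replicates 003, 004, 005 and 007 measured 0.648, 0.652, 1.06 and 0.746 CPM, and replicate 002 measured 1.43 CPM. Replicate 002 alone overlapped the vehicle range, by exceeding vehicle replicate 006. ANKRD37 had a log2 fold change of -1.26 (SE 0.30; -1.29 without vehicle replicate 001), between 2.18 ± 0.615 CPM (SD, n = 6) and 0.907 ± 0.336 CPM (SD, n = 5).

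KDM3A and MXI1 act in the nucleus. KDM3A removes methyl groups from lysine 9 of histone H3, a repressive mark. Its vehicle libraries ran from 49.8 CPM in replicate 001 through a median of 92.5 CPM to 151.4 CPM in replicate 003. Evexomostat gave 76.3, 54.5, 55.3, 53.3 and 66.2 CPM in replicates 002, 003, 004, 005 and 007. The overlap rested on vehicle replicate 001, and without that library every vehicle value, from 80.3 CPM upward, was above every evexomostat value. The log2 fold change was -0.71 (SE 0.24) with it and -0.85 (SE 0.19) without it.

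MXI1 pairs with MAX and represses genes that MYC activates. Its vehicle libraries ran from 19.9 CPM in replicate 001 through a median of 28.2 CPM to 54.1 CPM in replicate 003. Evexomostat gave 30.3, 25.1, 22.5, 22.9 and 27.5 CPM in replicates 002, 003, 004, 005 and 007. Only vehicle replicates 003 and 007 were above all of these. The log2 fold change was -0.39 (SE 0.25; -0.50 without vehicle replicate 001), with means of 33.7 ± 14.3 CPM (SD, n = 6) and 25.7 ± 3.28 CPM (SD, n = 5).

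INSIG2, which holds the sterol sensor SCAP in the endoplasmic reticulum and so restrains lipid synthesis, had its highest value in 1 vehicle library that stood far from the rest. Vehicle replicates 001, 003, 004, 005 and 006 measured 34.2, 34.4, 34.7, 32.6 and 22.8 CPM, while replicate 007 measured 74.8 CPM. Evexomostat gave 35.0, 27.9, 28.6, 28.6 and 26.5 CPM in replicates 002, 003, 004, 005 and 007. Without vehicle replicate 007 the log2 fold change moved from -0.41 (SE 0.25) to -0.12, more than 1.5 times smaller, while without vehicle replicate 001 it was -0.44. MXI1 depended likewise on vehicle replicate 003, without which its log2 fold change was -0.21, and BNIP3 on vehicle replicate 007, without which it was -0.40.

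**Figure D2:**
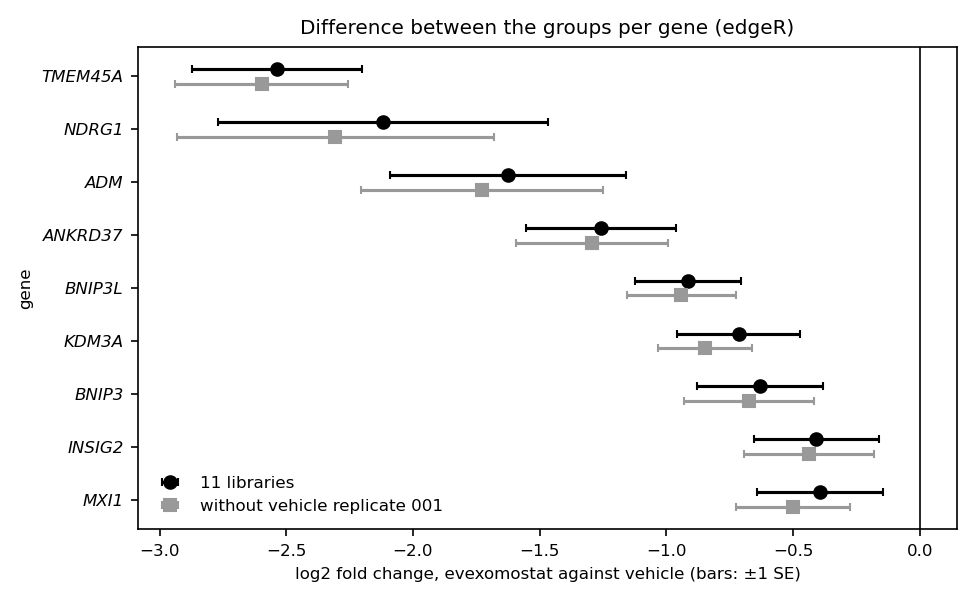
Log2 fold change of evexomostat against vehicle for each gene from edgeR, with bars of 1 SE, for all 11 libraries (black circles) and without vehicle replicate 001 (grey squares). All points lie below 0, from -2.54 for TMEM45A to -0.39 for MXI1 over all libraries.

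At an adjusted p of 0.05, edgeR called 1 of the 9 genes, TMEM45A, lower under evexomostat, where the calls over all tested genes were 0.606% in either direction and 0.432% lower. At an unadjusted p of 0.05 it called 7 of the 9 genes lower, where 8.55% of all tested genes were called lower. Every evexomostat library was below every vehicle library for 2 of the 9, TMEM45A and BNIP3L, and for 1.64% of all tested genes. Since the genes were proposed from this contrast, nothing is read from these shares. Without vehicle replicate 001, 4 of the 9 were called (TMEM45A, BNIP3L, ANKRD37 and KDM3A), where 3.24% of genes were called lower. Leaving out evexomostat replicate 002, 005 or 007 gave 0 of 9 at the adjusted threshold, where only 2, 1 and 3 of all tested genes passed. At an unadjusted p of 0.05 these settings called 7, 6 and 7 of 9, and 1884, 1833 and 1649 of all tested genes. The log2 fold changes of TMEM45A were then -2.39, -2.45 and -2.64. The authors' deposited table called 5 of the 9 (TMEM45A, ADM, NDRG1, BNIP3L and ANKRD37), where it called 0.536% of its genes lower. In the authors' deposited table the log2 fold changes ran from -2.44 for TMEM45A to -0.31 for INSIG2.

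Levels of different genes were compared per length of all annotated exons of a gene joined, which is not the length of a transcript. It can exceed that of the transcripts present, by an amount that can differ between genes, so the order also depends on the annotation. Dividing mean vehicle CPM by the total exon length in GENCODE 29 gave 62.2 CPM per kilobase for NDRG1, 31.9 for TMEM45A, 29.7 for BNIP3, 13.2 for BNIP3L and 12.8 for ADM. INSIG2 followed at 9.86 CPM per kilobase, KDM3A at 7.47, MXI1 at 7.32 and ANKRD37 at 0.845. Compared library by library, neighbours in this order separated in all 6 vehicle libraries at 2 places, BNIP3 above BNIP3L and MXI1 above ANKRD37. At the other places the gene with the higher mean was above its neighbour in 3 of 6 vehicle libraries, or in 4 of 6 for INSIG2 over KDM3A, so the order there did not hold beyond the spread. Under evexomostat the level of BNIP3, 19.2 ± 2.29 CPM per kilobase (SD, n = 5), was above that of TMEM45A, 5.5 ± 1.93 (SD, n = 5), in every library.

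The genes also varied between libraries of the same group. Vehicle replicate 007 was the highest vehicle library for 7 of the 9 genes and among the top 2 for all 9, while over all tested genes it was the highest for 20%. It was also the highest for 66.7% of 30 other non-glycolytic and 60% of 20 glycolytic hypoxia targets, so this order was shared by related genes. Vehicle replicate 003 was the highest for the other 2, KDM3A and MXI1. Vehicle replicate 006 was the lowest for 5 genes, replicate 001 for 3 and replicate 005 for TMEM45A alone. Under evexomostat, replicate 002 was the highest for 7 of the 9 genes, against 24.4% of all tested genes, 53.3% of the other non-glycolytic targets and 30% of the glycolytic ones. TMEM45A did the opposite there, with its lowest value of the whole series, 18.7 CPM, in that library. BNIP3L, the other exception, was highest in evexomostat replicate 007.

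**Figure D3:**
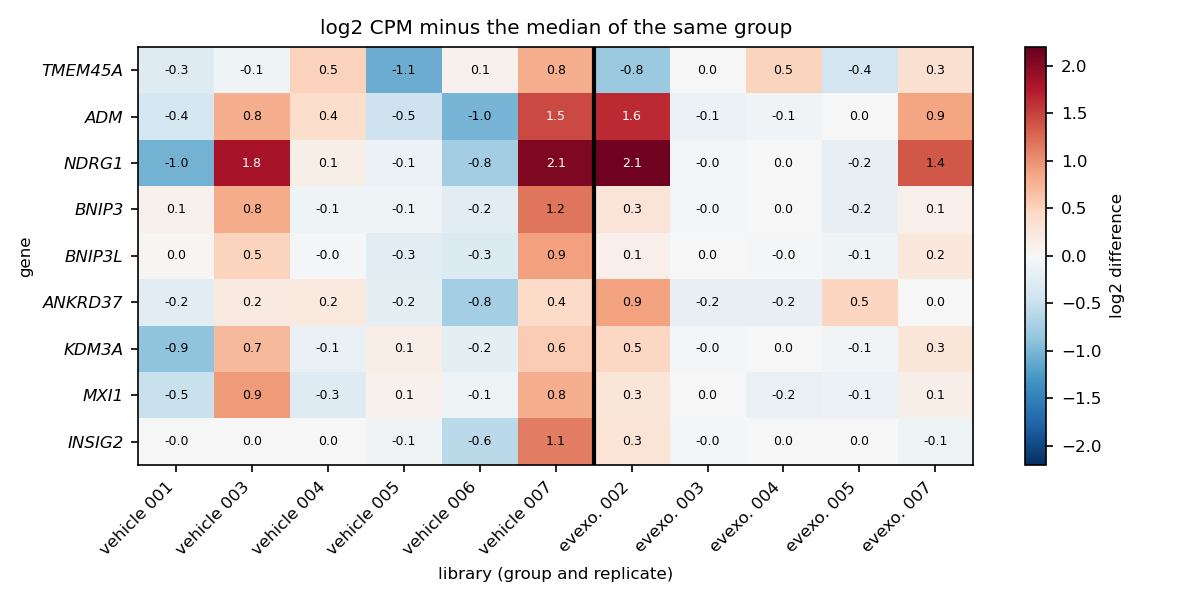
Log2 CPM of each gene (rows) in each library (columns) minus the median of the same group, in red above and blue below the median. Vehicle replicates 003 and 007 and evexomostat replicate 002 are red for most genes, whereas TMEM45A is blue in evexomostat replicate 002.

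The spread on the log2 scale was larger under vehicle than under evexomostat for 8 of the 9 genes, ANKRD37 being the exception. The same held for 81.2% of all tested genes, and without vehicle replicate 001 for 8 of 9 and for 63.1%. The median SD of the 9 genes was 0.58 under vehicle and 0.22 under evexomostat, and that of all tested genes was 0.42 and 0.23. Without vehicle replicate 001 the median SD under vehicle was 0.63 for the 9 genes and 0.28 for all tested genes. The difference in spread between the groups was not tested.

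Whether TMEM45A varied with the other 8 genes was examined within the 6 vehicle libraries, which does not use the contrast between the groups. Over the 8 relations Pearson's r of log2 CPM was between 0.191 and 0.589, and 0 of 8 passed an exact two-sided permutation test over all 720 pairings, either adjusted over the 8 or at an unadjusted p of 0.05. The strongest was with ADM, with r = 0.589 (exact permutation p = 0.217, adjusted p = 0.513) and Spearman's rho = 0.543 (exact permutation p = 0.297, adjusted p = 0.594). The weakest was with KDM3A, with r = 0.191 (exact permutation p = 0.740, adjusted p = 0.740) and rho = 0.200 (exact permutation p = 0.714, adjusted p = 0.803). Without vehicle replicates 005 and 007, the libraries farthest from the median of TMEM45A, r was between -0.441 and 0.249. Single libraries moved these values by over 1.5 times. Without vehicle replicate 007 the 8 values were between -0.147 and 0.289, without replicate 006 that for ANKRD37 went from 0.450 to 0.851, and without replicate 001 they were between 0.056 and 0.569. That none passed in 6 libraries does not show that the genes vary independently.

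**Figure D4:**
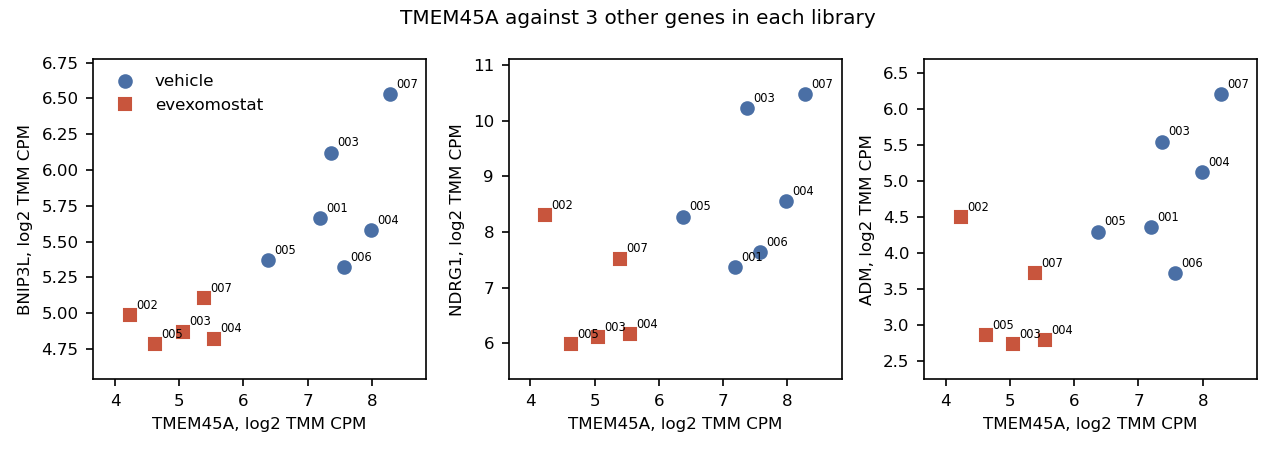
TMEM45A on the x axis against BNIP3L, NDRG1 and ADM on the y axes, as log2 TMM-scaled CPM, in 6 vehicle (blue circles) and 5 evexomostat (red squares) libraries labelled by replicate. Evexomostat replicate 002 is lowest on the TMEM45A axis but highest of its group for NDRG1 and ADM.

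The 36 pairs among all 9 genes were computed as well, a step added after the data had been seen. Pearson's r was above 0 for 36 of 36, also without vehicle replicate 001, and 10 pairs passed the exact permutation test at an adjusted p of 0.05, none of them with TMEM45A. With Spearman's rho 0 pairs passed, and 9 had an unadjusted p under 0.05. BNIP3 and BNIP3L were the closest pair, with r = 0.985 (exact permutation p = 0.00139, the smallest that 720 pairings can give, adjusted p = 0.0333) and rho = 1 (exact permutation p = 0.00278, adjusted p = 0.1). KDM3A and MXI1 had r = 0.943 (exact permutation p = 0.00278, adjusted p = 0.0333) and rho = 0.943 (exact permutation p = 0.0167, adjusted p = 0.1). For the 10 pairs, r was between 0.677 and 0.966 when the 2 libraries farthest from the median of the first gene were left out. Over all 36 pairs it then stayed above 0 in 25, and for NDRG1 with BNIP3 it went from 0.904 to -0.282 without vehicle replicates 003 and 007, on which that relation rested. All pairs share the same 6 libraries, and the same counts over pairs of other tested genes were not computed. The counts are therefore not read as particular to these 9 genes.

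The genes most like TMEM45A in pattern were taken from 13060 tested genes with a mean log2 CPM of at least 1, by Pearson's r of log2 CPM over all 11 libraries, which includes the difference between the groups and is given as a description. They were PI3 (r = 0.953), an elastase inhibitor, PPP4R4 (r = 0.943), a phosphatase regulatory subunit, SLC39A8 (r = 0.943), a zinc transporter, CXCR4 (r = 0.927), a chemokine receptor, and CSGALNACT1 (r = 0.923), an enzyme of chondroitin sulfate synthesis. Within the 6 vehicle libraries their r with TMEM45A was 0.675, 0.979, 0.853, 0.803 and 0.854, values that the choice itself favours, since these libraries were part of the 11. PI3 ran from 661 to 2375 CPM under vehicle and from 124.4 to 311.1 CPM under evexomostat. CXCR4 ran from 11.4 to 38.3 CPM under vehicle and from 4.17 to 8.34 CPM under evexomostat. Of the other 8 hypoxia-inducible genes, BNIP3L was the most like TMEM45A on this measure (r = 0.838) and MXI1 the least (r = 0.349).

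Of other hypoxia-inducible genes outside glycolysis, 29 of 30 were lower by sign, where 55.4% of all tested genes were. At the adjusted threshold 2 of 30 passed, both lower, where 0.432% of all tested genes were called lower. This list and the lists below were chosen with earlier results of these data known. Their counts and p-values are thus a description and no independent support. P4HA1, a subunit of the enzyme that hydroxylates collagen prolines, was 79.7 to 202.1 CPM under vehicle and 39.9 to 57.0 CPM under evexomostat (log2 fold change -1.37 with SE 0.23 and an edgeR adjusted p of 0.0233). NFIL3, a transcriptional repressor, was 68.7 to 138.7 CPM under vehicle and 38.6 to 55.7 CPM under evexomostat (log2 fold change -0.997, SE 0.189, edgeR adjusted p = 0.0388). Neither gene's groups overlapped, nor did those of RIOK3, a kinase named here after its values were seen (log2 fold change -0.48). CA9, the cell-surface carbonic anhydrase often used as a hypoxia marker, had the largest difference of the list but did not pass, with 3.66 to 73.7 CPM under vehicle and 0.616 to 4.73 CPM under evexomostat (log2 fold change -3.86 with SE 0.84 and an edgeR adjusted p of 0.0663). The list's median was -0.48, against -0.92 for the 9 genes and -0.04 for all tested genes. At an unadjusted p of 0.05 edgeR called 15 of the 30 lower and 1 higher, where 8.55% of all tested genes were called lower. Without vehicle replicate 001, 8 of the 30 passed, all lower, where 3.24% of all tested genes were called lower. Leaving out any 1 evexomostat library gave 0, with 9 to 14 at an unadjusted p under 0.05. Over all tested genes, 2, 46, 28, 1 and 3 then passed without evexomostat replicates 002, 003, 004, 005 and 007. Leaving out vehicle replicate 003, 004 or 006 gave 1 of the 30, and 52, 46 and 79 of all tested genes. P4HA1 kept an adjusted p under 0.05 in limma-trend on log2(RPM + 1), where 1 of the 30 and 74 of all tested genes passed.

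All 20 glycolytic targets had a fitted level below that of vehicle, as did 55.4% of all tested genes. The median log2 fold change of the 20 was -0.55. None of the 20 passed edgeR's adjusted threshold. At an unadjusted p under 0.05, 12 were lower, where 8.55% of all tested genes were. DESeq2 called 6 of the 20 and limma-voom 0, where they called 649 and 89 of all tested genes. PDK1, the kinase that shuts the pyruvate dehydrogenase complex, was the nearest (log2 fold change -1.24, SE 0.35, edgeR adjusted p = 0.134), and its groups did not overlap. ALDOC, an aldolase (log2 fold change -0.93, edgeR adjusted p = 0.139), and SLC2A3, a glucose transporter (log2 fold change -1.77, edgeR adjusted p = 0.143), came next. Without vehicle replicate 001, 9 of the 20 passed, all lower, where 3.24% of all tested genes were called lower. The difference between the 9 genes and the glycolytic list was not tested.

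**Figure D5:**
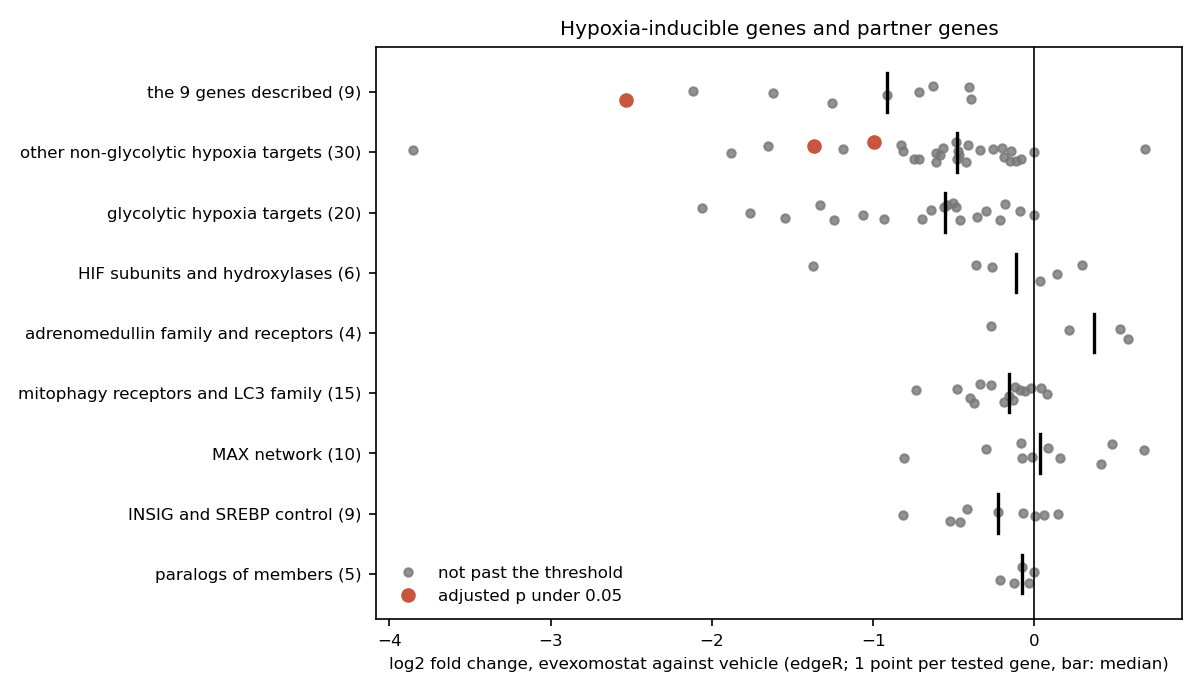
Log2 fold change of each tested gene (1 point each) in the 9 genes and in 8 related lists, with a black bar at the list's median and red points for an adjusted p under 0.05. The red points are TMEM45A, P4HA1 and NFIL3, and both lists of other hypoxia targets lie mostly below 0.

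The partners and relatives of the 9 genes were read from 6 further lists. Of their 49 tested genes 0 passed edgeR's adjusted threshold, 8 had an unadjusted p under 0.05, and 2 passed in DESeq2 (HIF1A and SQSTM1), 0 in limma-voom and 4 with quality weights. Over all 16653 tested genes the same counts were 101, 2225, 649, 89 and 1059. Without vehicle replicate 001, 5 of 48 passed, all lower (HIF1A, ARNT, SQSTM1, SREBF1 and SREBF2), where 3.24% of all tested genes were called lower. HIF1A, the oxygen-regulated subunit itself, was 34.2 to 295.0 CPM under vehicle and 38.0 to 80.9 CPM under evexomostat (log2 fold change -1.37 with SE 0.40 and an edgeR adjusted p of 0.141). Of the other tested HIF subunits and regulators, ARNT2 gave 0.29 and VHL gave -0.36, the 2 with the next smallest p. VHL was 394.0 CPM in vehicle replicate 001 but 111.4 to 193.1 CPM in the other vehicle libraries. Under evexomostat VHL was 137.4 to 199.0 CPM. For the adrenomedullin family and its receptors, where ADM is the ligand, the log2 fold changes were 0.53 (SE 0.30) for ADM5 and 0.21 (SE 0.20) for ADM2. The receptor CALCRL gave 0.58 (SE 0.64) and RAMP1, a protein that pairs with it, gave -0.27 (SE 0.39). RAMP2 and RAMP3, which also pair with CALCRL, were below the count filter, so no difference could be read for them. ADM5 and CALCRL were low, at 0.515 to 1.86 and 0.037 to 4.95 CPM under vehicle, so their values are uncertain. Of 15 mitophagy genes, the autophagy receptor SQSTM1 was 3162 to 6883 CPM under vehicle and 2403 to 3239 CPM under evexomostat (log2 fold change -0.74, SE 0.19, edgeR adjusted p = 0.112), while OPTN gave -0.40 and GABARAPL1 gave -0.34.

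Among the MAX network genes, to which MXI1 belongs, 5 of 10 had a log2 fold change above 0 and 5 below it, with a median of 0.04. The 3 with the smallest p, MYC (0.48, edgeR adjusted p = 0.224), MXD4 (0.41) and MYCL (0.68, SE 0.32), were above 0, while MYCN gave -0.81 (SE 0.49). MYCL and MYCN were low, at 0.515 to 1.24 and 0.162 to 0.919 CPM under vehicle, so their values are uncertain. MYCN and RAMP1 are named after their values were seen. Among genes of sterol control, INSIG1, the relative of INSIG2, gave -0.82 (edgeR adjusted p = 0.256) and the transcription factor SREBF1 gave -0.53. The relatives NDRG3, JMJD1C and NDRG4 gave -0.22, -0.13 and -0.08, and TMEM45B, the relative of TMEM45A, was below the count filter, so no difference could be read for it.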

How the data were processed

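Total RNA of 11 tumour libraries was sequenced as paired-end reads, per the labels' protocols. The submitters' processing notes name bcl2fastq 2.17, STAR 2.7.5c, featureCounts, Subread, edgeR and the build GRCh37/hg19. How strand and mouse reads were treated, and which annotation was counted, is not given in the sources used here. The deposited count table holds raw read counts per gene symbol, and the deposited RPM table holds the same counts scaled to a common total, as RPM (largest difference 2e-13). The authors' deposited comparison table gives, for each gene, the p-value and its adjusted form beside a log2 fold change.

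Libraries were grouped by their titles, and columns were matched by the code in the sample descriptions. The 9 genes, the gene lists and the marker lists were chosen with earlier results of these data known. Genes were filtered with filterByExpr (minimum count 10, minimum total count 15), which left 16653 of 28152, and fitted with TMM factors and the quasi-likelihood F-test of edgeR 4.0.16 in R 4.3.3, with Benjamini-Hochberg adjustment over all tested genes and a threshold of 0.05. Log2 CPM used a prior count of 2. Named list genes were those past the threshold and the 3 of each list with the smallest p. The values of 2 list genes are not reported here. Likeness named the 5 genes with the highest r. Promoter windows came from RefSeq (GRCh38.p14) and exon lengths from GENCODE 29. No pair of libraries agreed within sampling noise (smallest chi-square per degree of freedom 16.4 over 55 pairs), so none was counted as 1 sample. Alternatives were other scalings, DESeq2 1.42.0, limma 3.58.1 (voom, quality weights, trend on log2 RPM), no count filter, a replicate block and leaving out each library.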

Additional observations from a re-analysis of the deposited data

Results flagged for a closer look

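In 70 groups of 5 or 6 libraries (the 9 genes, the genes named from the related lists by smallest p, the library total and the ribosomal share, under vehicle and under evexomostat), the highest and lowest library were compared with the rest by Dixon's 95% critical value. This gave 5 flags where chance would give about 3.5, so they are listed as values. INSIG2 was far above the rest in vehicle replicate 007, at 74.8 CPM against 22.8 to 34.7 CPM in the other vehicle libraries. INSIG2 also stood apart in evexomostat replicate 002, at 35.0 CPM against 26.5 to 28.6 CPM. PDK1, the pyruvate dehydrogenase kinase, was 153.0 CPM in vehicle replicate 007 against 34.3 to 74.3 CPM in the others of its group. VHL was 394.0 CPM in vehicle replicate 001 against 111.4 to 193.1 CPM. The share of counts in ribosomal protein genes was 13.5% in that same library against 4.57% to 6.55%.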

How the results depend on the processing

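All 9 genes kept a log2 fold change below 0 under all 21 alternatives tried. TMEM45A kept an adjusted p under 0.05 in 18 of them, all except leaving out evexomostat replicate 002, 005 or 007. Since the 9 genes were selected on this contrast and the alternatives reuse the same libraries, these counts describe the processing only. They are no independent support for a difference. Of the 9 genes, 1 passed in the design as fixed, 4 in DESeq2, 6 in limma-voom with quality weights, and 0 to 4 when 1 library was left out. Over all tested genes the calls went from 101 to 649 in DESeq2, 1059 with quality weights and 1 to 865 when 1 library was left out (1 without evexomostat replicate 005, 865 without vehicle replicate 001). Of the 30 other non-glycolytic targets, 2 passed, against 6 in DESeq2, 8 with quality weights, 1 in limma-trend on log2(RPM + 1), 1 on log2(RPM + 0.1) and 0 to 8 with 1 library left out. Of the 20 glycolytic targets, 0 passed, against 6 in DESeq2, 9 with quality weights and 0 to 9 with 1 library left out. The cause of these differences was not tested. Replicate numbers are shared by 4 libraries of each group, and their deviations from the group means correlated by -0.27, 0.07, 0.05 and -0.10, so the numbers were not taken as pairs. With a replicate block on those 8 libraries, 107 genes, 4 of the 9, 5 of the 30 and 6 of the 20 passed, and the same 8 libraries with no replicate block gave 733, 6, 10 and 11. The median log2 fold change of all genes was -0.04 in the design as fixed but 0.08 on log2(RPM + 1) and 0.10 on log2(RPM + 0.1), and of the calls 29 were higher and 72 lower in the first, 43 and 31 in the second and 38 and 30 in the third. Relative to that shift all 9 genes remained lower. Without vehicle replicate 007 the r of TMEM45A within the vehicle libraries turned to -0.10 for KDM3A, -0.15 for MXI1 and -0.13 for INSIG2, and over the vehicle libraries left out in turn it reached 0.451, 0.425 and 0.681. Between alternatives that left out no single library, the log2 fold change ran from -0.68 to -0.20 for MXI1 and from -0.67 to -0.21 for INSIG2, and that of ANKRD37 was -0.68 on log2(RPM + 1), whose pseudocount understates the change of low genes. Depth limits mainly ANKRD37, with 16 to 98 counts per library.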
